A study of Mus musculus with 12 samples.

Results

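Transcript levels of 10 genes of the endoplasmic reticulum (ER) stress response and the integrated stress response were followed in mouse liver during feeding of bezafibrate, a fibrate drug that activates the nuclear receptor PPARalpha. The genes were Hspa5, Creld2, Sdf2l1, Herpud1, Xbp1, Atf4, Ddit3, Atf3, Trib3 and Asns. They were chosen by gene symbol, with earlier results of these data known, so no excess over the shares of all genes was tested. The array held 18193 genes with a probe set of exactly 1 symbol, and the 10 were read by 21 of 45037 probe sets. All 10 genes were among the 13598 tested, and 20 of the 21 probe sets passed the filter on low values. The exception was an Atf4 probe set, at 4.39 to 4.89 in all mice. Values are log2 signals, so a difference of 1 is a doubling, and levels are not compared between genes.

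Livers of 12 male mice aged 6 to 12 weeks, kept in 12 h light and 12 h dark, were taken at Zeitgeber time 14, counted from lights on. There were 4 groups of 3 mice. Untreated wild-type mice (Jcl:ICR) ate a normal diet. Wild-type mice of that strain, PPARalpha-null mice (a cross of 129S4SvJae-PPARalphatm1Gonz/J with Jcl:ICR) and Clk/Clk mutant mice (Jcl:ICR) were fed for 5 days on that diet with bezafibrate added at 0.5% by weight. The array comparison was set up to find PPARalpha-regulated genes whose expression depends on CLOCK. It holds no untreated mutant mice, so in the mutants a difference of genotype and a different response to the drug cannot be told apart. The PPARalpha-null strain also differed from wild type in its mixed background. Labels give no litter or batch.

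Proteins that enter the ER are folded by chaperones, of which BiP, the product of Hspa5, is among the most abundant. When unfolded proteins accumulate, the sensors IRE1 and ATF6 raise chaperones and degradation factors through the transcription factors XBP1 and ATF6. Another sensor, PERK, phosphorylates eIF2alpha, as do kinases that sense amino acid shortage, viral RNA or heme shortage. That phosphorylation lowers general protein synthesis but favours translation of Atf4 mRNA, and ATF4 raises genes of amino acid supply and stress signalling. The first arm is read here by Hspa5, Creld2, Sdf2l1, Herpud1 and Xbp1, and the second by Atf4, Ddit3, Atf3, Trib3 and Asns. ATF4 acts largely through its translation, which arrays do not measure.

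The promoters of 5 members are shown because the letters of the 2 arms' known response elements lie in them. They are from RefSeq (GRCm38.p6), run 5′ to 3′ on the gene's strand, and end at the last base before the annotated start. All 10 members had a promoter entry, and the 250 bases before each start were searched on both strands. Capitals mark the match.
Hspa5: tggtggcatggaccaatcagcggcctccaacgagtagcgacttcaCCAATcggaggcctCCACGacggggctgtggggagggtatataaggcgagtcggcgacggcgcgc
Creld2: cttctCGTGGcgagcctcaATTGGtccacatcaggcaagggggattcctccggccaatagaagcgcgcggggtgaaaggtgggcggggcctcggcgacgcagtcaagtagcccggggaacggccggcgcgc
Herpud1: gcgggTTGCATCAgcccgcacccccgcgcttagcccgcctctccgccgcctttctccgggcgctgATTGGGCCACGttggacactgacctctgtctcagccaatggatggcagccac
Atf3: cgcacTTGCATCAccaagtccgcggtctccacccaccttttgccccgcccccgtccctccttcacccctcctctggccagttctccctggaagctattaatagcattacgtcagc
Asns: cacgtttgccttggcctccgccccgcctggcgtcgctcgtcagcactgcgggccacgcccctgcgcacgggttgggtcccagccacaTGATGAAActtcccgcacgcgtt
The ER stress response element, CCAAT and CCACG with any 9 bases between, was found in Hspa5 (chr2:34771980-34772089, plus strand) at -65 to -47 from the start. It also lay in Creld2 (chr15:88819515-88819645, plus strand) at -126 to -108, on the opposite strand. In these 2 promoters the capitals mark the CCAAT and CCACG ends, as written or as their reverse complement. The letters occurred in 37 of 32841 mouse promoters of this length, a share of 0.113%. The second ER stress element, ATTGG and CCACG with any 1 base between, was found in Herpud1 (chr8:94386312-94386428, plus strand) at -52 to -42, and in 0.0304% of promoters. The C/EBP-ATF composite site bound by ATF4, TGATGNAA, was found in Asns (chr6:7693210-7693319, minus strand) at -23 to -16. On the opposite strand it lay in Atf3 (chr1:191183334-191183448, minus strand) at -110 to -103 and in Herpud1 at -112 to -105. Of all promoters, 3.45% held it. Herpud1 thus held letters of both kinds. The letters TGACGTGG and TGACGTCA were found in none of the 10 windows, and in 0.563% and 1.55% of all promoters. A CCAAT box, part of both ER stress elements, was found in 6 members and in 33.9% of promoters. A match describes letters only, and binding was not measured.

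In wild-type liver, bezafibrate was accompanied by lower levels of the ER arm and higher levels of several ATF4 targets. Of the 10 members, 4 fell (Hspa5, Sdf2l1, Herpud1 and Xbp1) and 3 rose (Atf3, Trib3 and Asns). A change was called at an adjusted p under 0.05 in limma, a moderated linear model, with at least 1.5-fold. By that rule 20.6% of all tested genes changed in this comparison, 7.77% lower and 12.8% higher. For 6 members the 3 treated and 3 untreated wild-type mice did not overlap, against 56.3% of all genes. The member median was -0.52 and that of all tested genes 0.01.

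Against treated wild type, 2 members were higher in PPARalpha-null liver (Herpud1 and Xbp1) and 1 was lower (Atf3), where 13.4% of all genes were called, 5.35% higher and 8.09% lower. Clk/Clk liver had 2 members higher (Ddit3 and Trib3) and 0 lower in limma, where 9.13% of genes were called, 2.64% higher and 6.49% lower. At an unadjusted p under 0.05, Herpud1, Xbp1, Ddit3 and Trib3 were higher there and 0 members were lower. The shares of all genes at that threshold, at any fold, were 17.7% higher and 20% lower. The non-overlapping members numbered 6 in PPARalpha-null and 5 in Clk/Clk liver, with 48.6% and 42.3% of all genes. These 3 comparisons share the treated wild-type mice, so their values are not independent.

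**Figure D1:**
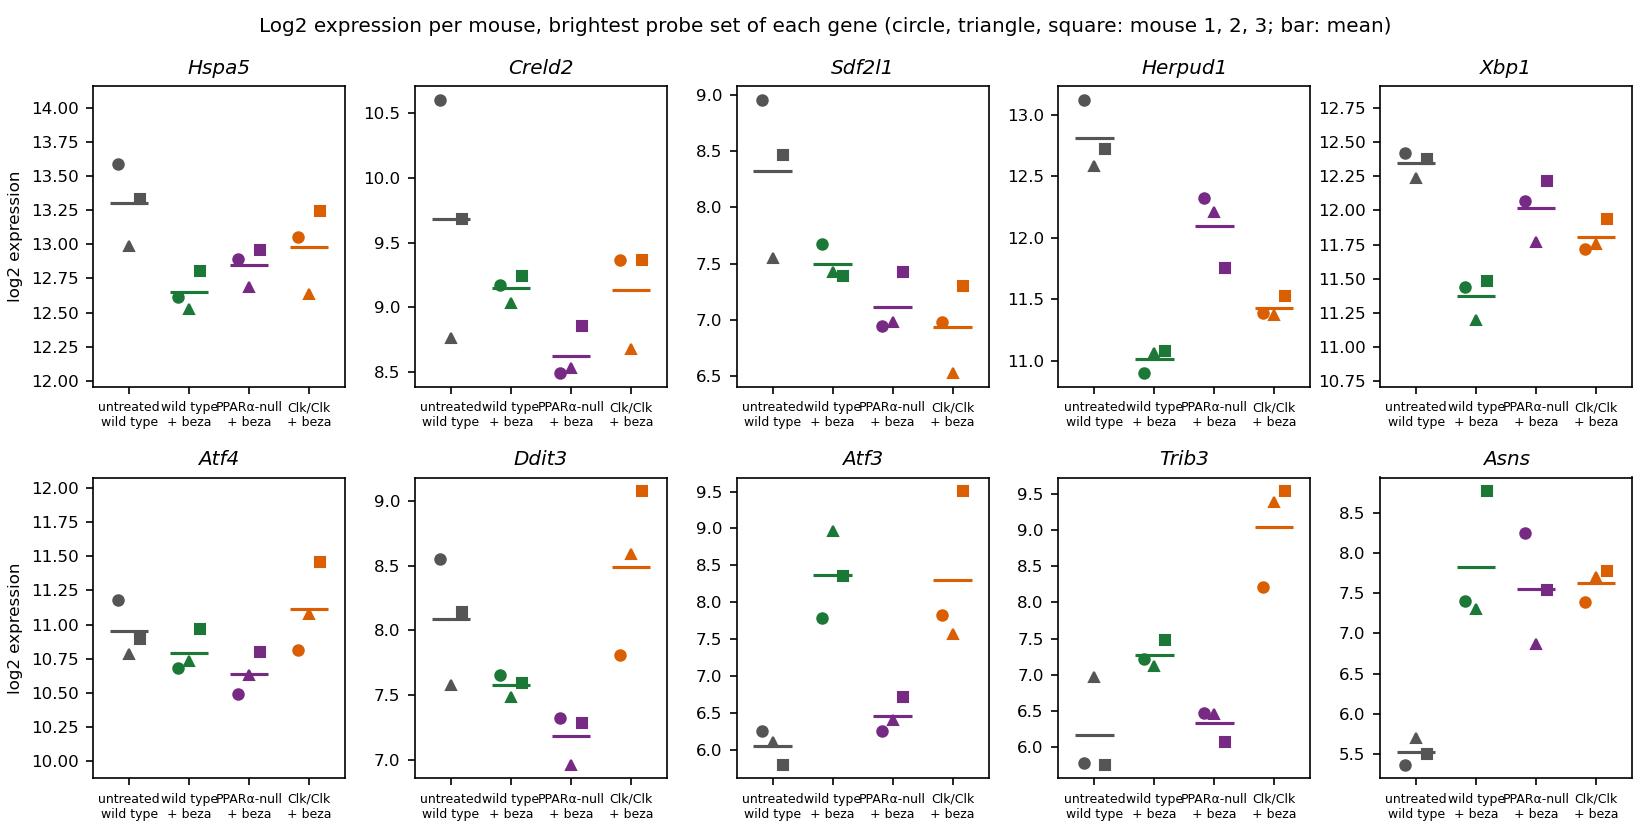
Log2 signal of the brightest probe set of each of the 10 members in each of the 12 mice (points), with the group mean as a bar, for untreated wild type and bezafibrate-fed wild type, PPARalpha-null and Clk/Clk mice. Herpud1 and Xbp1 lie lower in treated than in untreated wild type, whereas Atf3 and Asns lie higher. Trib3 reaches 8.22 to 9.53 in Clk/Clk mice.

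Hspa5 encodes BiP, the chaperone that also holds the ER stress sensors inactive. Its brightest probe set (1416064_a_at) read 13.59, 12.99 and 13.33 in untreated wild type, 12.61, 12.53 and 12.81 in treated wild type, 12.89, 12.69 and 12.95 in PPARalpha-null and 13.05, 12.64 and 13.24 in Clk/Clk mice. All 3 treated wild-type mice lay under all 3 untreated ones, by a narrow margin, and both mutants lay between or overlapped. The gene fell by 0.65 on the log2 scale with the drug in wild type (SE 0.171, 1.57-fold, adjusted p = 0.00789). Without untreated mouse 1 the difference was -0.51, under 1.5-fold. Compared with treated wild type, PPARalpha-null mice differed by 0.20 (95% interval -0.18 to 0.57, adjusted p = 0.405) and Clk/Clk mice by 0.33 (adjusted p = 0.184). Counted by probe set, 19.3% of all tested were called in wild type (11.2% higher, 8.14% lower), 12.4% in PPARalpha-null (4.99% and 7.42%) and 8.6% in Clk/Clk liver (2.61% and 5.99%). A second Hspa5 probe set (1427464_s_at) fell by 0.80 in wild type, and the third (1447824_x_at) differed by 0.13, not called and of opposite sign. With the mean of the 3 probe sets the difference was -0.44 and no longer reached 1.5-fold.

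Creld2 encodes an ER-resident protein that is induced by ER stress. Its signal was 10.60, 8.76 and 9.68 in untreated wild type, 9.17, 9.03 and 9.24 in treated wild type, 8.49, 8.53 and 8.86 in PPARalpha-null and 9.36, 8.68 and 9.36 in Clk/Clk mice. The untreated mice spread over a 3.58-fold range, which enclosed all the treated wild-type mice. The drug difference in wild type was -0.53 (95% interval -1.32 to 0.25, adjusted p = 0.239) and was not called. Without untreated mouse 2, the lowest of its group, the gene fell by 0.995 (adjusted p = 0.0120). PPARalpha-null mice all lay under treated wild type, with a difference of -0.52 that was not called (adjusted p = 0.284), and the Clk/Clk difference was -0.01 (95% interval -0.79 to 0.77).

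Sdf2l1 encodes a component of the ER chaperone complex. It read 8.95, 7.55 and 8.46 in untreated wild type, 7.67, 7.42 and 7.39 in treated wild type, 6.94, 6.98 and 7.42 in PPARalpha-null and 6.98, 6.53 and 7.30 in Clk/Clk mice. Untreated mouse 2 lay within the treated wild-type range, and all 3 Clk/Clk mice lay under that range. In wild type the gene fell by 0.83 with the drug (SE 0.302, 1.77-fold, adjusted p = 0.0403). That call was lost without any 1 of 7 arrays. Leaving out untreated mouse 1 gave -0.51 (adjusted p = 0.161) and leaving out untreated mouse 3 gave -0.76 (adjusted p = 0.107). Without treated wild-type mouse 1, 2 or 3 the adjusted p was 0.0534, 0.0920 and 0.0954, and without PPARalpha-null mouse 2 or Clk/Clk mouse 1 it was 0.0513 and 0.0532. The adjusted p missed the threshold too with array weights (0.0594), a robust fit (0.0549) and only the groups compared (0.0783). The differences of PPARalpha-null (-0.38) and Clk/Clk mice (-0.56) from treated wild type were not called (adjusted p = 0.358 and 0.199).

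Herpud1 encodes a membrane protein that organises ER-associated degradation, and it had the largest fall of the 10 members in wild type. The signal was 13.12, 12.58 and 12.72 in untreated wild type, 10.90, 11.06 and 11.08 in treated wild type, 12.33, 12.21 and 11.76 in PPARalpha-null and 11.39, 11.37 and 11.52 in Clk/Clk mice. The 4 groups did not overlap, in the order untreated wild type, PPARalpha-null, Clk/Clk, treated wild type. With the drug in wild type the gene fell by 1.80 (SE 0.157, 3.48-fold, adjusted p = 3.73e-06). It was 2.12-fold higher in PPARalpha-null than in treated wild-type mice (1.09, adjusted p = 0.000298). The Clk/Clk difference of 0.42 was not called (adjusted p = 0.0728). Treated PPARalpha-null mice still lay 0.71 under untreated wild type (log2 difference -0.71, adjusted p = 0.00842). A second probe set (1435626_a_at) fell by 1.69 in wild type and was 1.02 higher in PPARalpha-null mice.

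Xbp1 encodes the transcription factor that IRE1 activates by splicing its mRNA; the array signal does not separate spliced from unspliced mRNA here. It read 12.42, 12.23 and 12.38 in untreated wild type, 11.44, 11.20 and 11.48 in treated wild type, 12.07, 11.77 and 12.21 in PPARalpha-null and 11.72, 11.76 and 11.94 in Clk/Clk mice. Treated wild-type mice lay under the mice of every other group. The gene fell by 0.97 in wild type (SE 0.118, 1.96-fold, adjusted p = 4.8e-05). In PPARalpha-null liver it was 0.64 higher than in treated wild type (1.56-fold, adjusted p = 0.00158), which dropped under 1.5-fold without PPARalpha-null mouse 3 (0.55) or treated wild-type mouse 2 (0.56). In Clk/Clk liver the difference of 0.43 had an adjusted p of 0.0221 but a fold of 1.35, under the minimum. The other 3 probe sets differed by -0.73, -0.57 and -0.69 with the drug, of which the first and the third were called, and by 0.55, 0.42 and 0.43 in PPARalpha-null mice, none called.

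Atf4 encodes the transcription factor at the centre of the integrated stress response. Its mRNA read 11.18, 10.79 and 10.90 in untreated wild type, 10.68, 10.73 and 10.96 in treated wild type, 10.49, 10.63 and 10.80 in PPARalpha-null and 10.81, 11.08 and 11.46 in Clk/Clk mice. Each group overlapped treated wild type. No main comparison was called: -0.16 with the drug (95% interval -0.51 to 0.19), -0.15 in PPARalpha-null and 0.33 in Clk/Clk mice, with adjusted p of 0.423, 0.5 and 0.159. The 2 mutants differed from each other by 0.48 (adjusted p = 0.0355, 1.39-fold), under the fold minimum. A second, dimmer probe set (1438992_x_at) was called higher in Clk/Clk than in PPARalpha-null mice, by 0.97, as were 7.21% of all probe sets. In PPARalpha-null mice that probe set was also called lower than in untreated wild type (-0.84, adjusted p = 0.0123). For that comparison the share called lower was counted by gene only, at 2.69%. The difference of that probe set between PPARalpha-null and treated wild-type mice, -0.51, was not called (adjusted p = 0.068).

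Ddit3 encodes CHOP, a transcription factor induced through ATF4 that is linked to cell death in prolonged stress. The brighter probe set (1417516_at) read 8.55, 7.57 and 8.14 in untreated wild type, 7.65, 7.48 and 7.59 in treated wild type, 7.32, 6.96 and 7.28 in PPARalpha-null and 7.81, 8.59 and 9.08 in Clk/Clk mice. Clk/Clk mice lay above both other treated groups, PPARalpha-null mice lay lowest, and untreated mouse 2 lay within treated wild type. The drug difference in wild type was -0.51 (95% interval -1.15 to 0.12, adjusted p = 0.166), not called. Against treated wild type the gene was 0.92 higher in Clk/Clk liver (SE 0.29, 1.89-fold, adjusted p = 0.0394). The call was lost without any 1 of 7 arrays, with values from 0.62 (without Clk/Clk mouse 3, adjusted p = 0.142) to 0.96 (without treated wild-type mouse 1, adjusted p = 0.0714). The other arrays were Clk/Clk mouse 2 (adjusted p = 0.104), PPARalpha-null mouse 3 (0.0531), treated wild-type mice 2 and 3 (0.101 and 0.0729) and untreated mouse 3 (0.0527). The second probe set (1443897_at) read 6.14, 6.10 and 6.21 in Clk/Clk and 6.19, 6.21 and 5.95 in treated wild-type mice, a difference of 0.04, so the probe sets disagree; in PPARalpha-null mice it read 6.06, 5.67 and 6.13; with their mean the difference was 0.48 (adjusted p = 0.174). That second probe set fell by 0.74 with the drug in wild type, and was also lower in Clk/Clk than in untreated mice (-0.70, adjusted p = 0.0329), where the first differed by 0.40.

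Atf3 encodes a stress-induced transcription factor downstream of ATF4. It read 6.26, 6.10 and 5.79 in untreated wild type, 7.79, 8.96 and 8.35 in treated wild type, 6.25, 6.40 and 6.72 in PPARalpha-null and 7.82, 7.56 and 9.51 in Clk/Clk mice. All treated wild-type and Clk/Clk mice lay above all untreated and PPARalpha-null mice. The gene rose 4.98-fold with the drug in wild type (2.32, SE 0.432, adjusted p = 0.000985). It was 3.77-fold lower in PPARalpha-null than in treated wild-type mice (-1.91, adjusted p = 0.00553). PPARalpha-null mice differed from untreated wild type by 0.40 (adjusted p = 0.555). The Clk/Clk difference from treated wild type was -0.07 (95% interval -1.02 to 0.88), with an SD of 1.06 among the Clk/Clk mice.

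Trib3 encodes a pseudokinase that is a target of ATF4 and CHOP and restrains them. It read 5.78, 6.97 and 5.76 in untreated wild type, 7.22, 7.12 and 7.48 in treated wild type, 6.47, 6.46 and 6.07 in PPARalpha-null and 8.22, 9.39 and 9.53 in Clk/Clk mice. The Clk/Clk mice lay above the mice of every other group, and untreated mouse 2 lay more than 1 unit above the others of its group. In wild type the gene rose 2.15-fold (1.10, SE 0.361, adjusted p = 0.025). It missed the threshold when treated wild-type mouse 1 or 3 was left out (adjusted p = 0.0503 and 0.0717) and likewise for untreated mouse 1 or 3 (0.0901 and 0.0945). Clk/Clk liver held 3.42-fold more signal than treated wild type (1.77, SE 0.361, adjusted p = 0.00496) and kept that call without any 1 of the 12 arrays. PPARalpha-null mice all lay under treated wild type by a mean difference of -0.94 that missed the threshold (95% interval -1.73 to -0.15, adjusted p = 0.0641). It passed without Clk/Clk mouse 1 or untreated mouse 2 (adjusted p = 0.0256 and 0.0282). The second probe set (1456225_x_at) was called in each main comparison, at 1.15 with the drug, -1.42 in PPARalpha-null and 1.73 in Clk/Clk mice.

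Asns encodes asparagine synthetase, a classical ATF4 target of the amino acid response. It read 5.37, 5.70 and 5.50 in untreated wild type, 7.40, 7.30 and 8.77 in treated wild type, 8.25, 6.87 and 7.54 in PPARalpha-null and 7.40, 7.70 and 7.77 in Clk/Clk mice. Every treated mouse, of any genotype, lay above every untreated mouse, and the treated groups overlapped. The gene rose 4.93-fold in wild type (2.30, SE 0.382, adjusted p = 0.000441). Against untreated wild type it was 4.08-fold higher in PPARalpha-null (adjusted p = 0.00383) and 4.29-fold higher in Clk/Clk mice (adjusted p = 0.00085). Between treated groups the differences were -0.27 in PPARalpha-null (95% interval -1.11 to 0.57) and -0.20 in Clk/Clk mice (adjusted p = 0.62 and 0.737), intervals too wide to show that the genotypes act alike. The second probe set (1433966_x_at) read 2.76 to 3.48 in untreated mice, under the filter level of 4.87 to 4.92, and 5.07 to 7.77 in the treated mice. It passed the filter only through the treated groups, so no call is drawn from it.

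**Figure D2:**
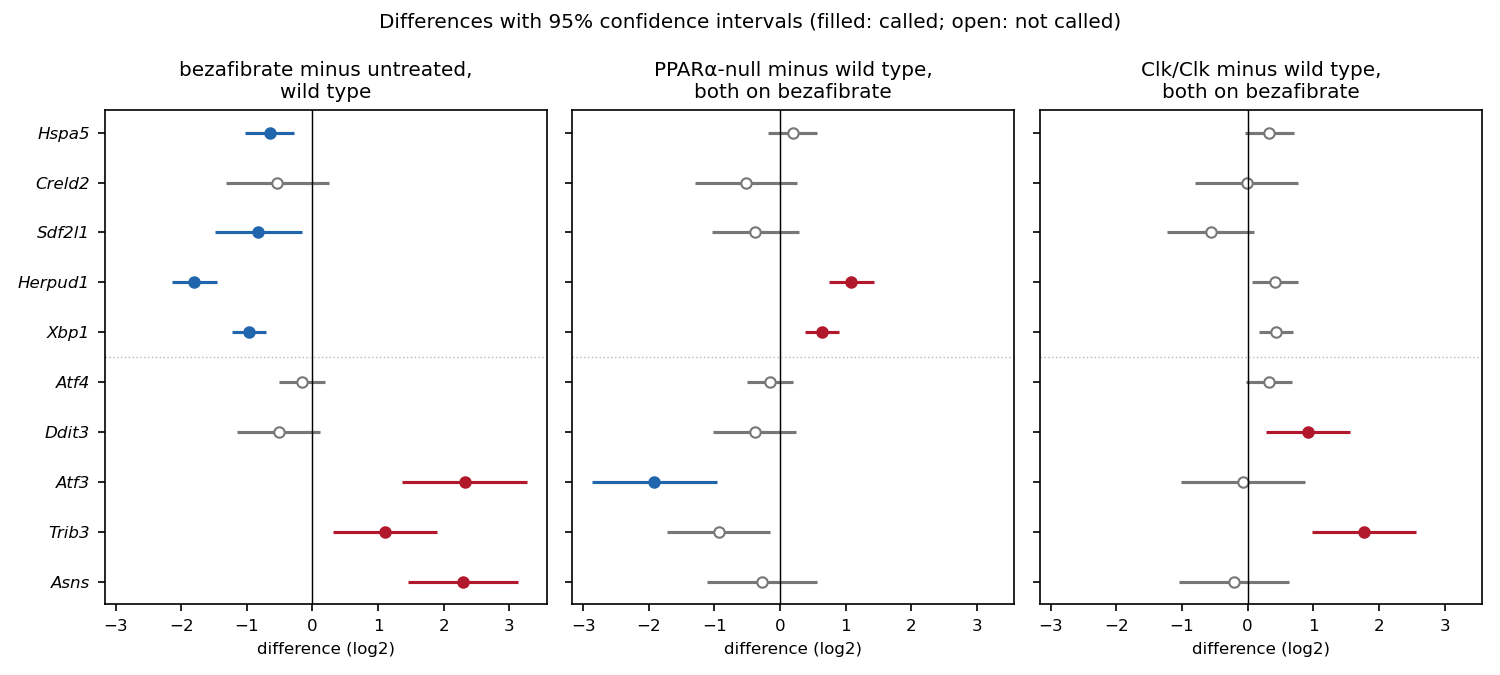
Log2 difference with its 95% interval for each member in the 3 main comparisons, from the limma fit, with filled points for called members. Herpud1 is at -1.80 with the drug in wild type and at 1.09 in PPARalpha-null against treated wild type, and Trib3 is at 1.77 in Clk/Clk against treated wild type.

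The treated mutants were also set against untreated wild type. In PPARalpha-null mice 3 members were lower (Sdf2l1 -1.21, Herpud1 -0.71 and Ddit3 -0.90) and 1 was higher (Asns 2.03), where 6.65% of all genes were called, 3.96% higher and 2.69% lower. In Clk/Clk mice 2 members were lower (Sdf2l1 -1.39 and Herpud1 -1.38) and 3 higher (Atf3 2.25, Trib3 2.88 and Asns 2.10), where 19.5% were called, 10.6% higher and 8.82% lower. In each of these comparisons 6 members did not overlap, with 39.4% and 55.2% of all genes. Asns was therefore the member called higher than untreated wild type in all 3 treated groups, and Herpud1 and Sdf2l1 were called lower in all 3. All 3 share the same untreated mice.

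The direct comparison of both mutants on the drug tested where their differences from treated wild type were unequal. Clk/Clk mice had higher Trib3 (2.71, SE 0.361, 6.55-fold, adjusted p = 0.000133), Atf3 (1.84, adjusted p = 0.00584) and Ddit3 (1.31, adjusted p = 0.00421), and lower Herpud1 (-0.67, adjusted p = 0.00583). The second probe sets of Ddit3 (0.20, adjusted p = 0.569) and Herpud1 (-0.51, 1.43-fold) were not called. In this comparison 15.2% of all genes were called, 7.43% higher and 7.78% lower, and 5 members did not overlap, with 50.9% of all genes. Asns differed by 0.07 (95% interval -0.77 to 0.91), and Hspa5 by 0.13, Xbp1 by -0.21 and Sdf2l1 by -0.18, none called.

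To set the chaperones beside the ATF4 targets, each member's value was expressed as its log2 difference from the untreated mean of that gene and averaged within each mouse. The chaperone mean (Hspa5, Creld2 and Sdf2l1) was 0.61, -0.67 and 0.06 in untreated wild type and -0.62, -0.78 and -0.62 in treated wild type. It was -0.99, -1.04 and -0.69 in PPARalpha-null and -0.64, -1.15 and -0.47 in Clk/Clk mice. Untreated mouse 2 lay within the treated wild-type range, and the others of its group above it. The mean of the ATF4 targets (Ddit3, Atf3, Trib3 and Asns) was 0.03, 0.13 and -0.16 in untreated wild type and 1.06, 1.26 and 1.59 in treated wild type. It was 0.61, 0.21 and 0.44 in PPARalpha-null and 1.35, 1.85 and 2.51 in Clk/Clk mice. On this scale the mean of these ATF4 targets put the groups in the order untreated, PPARalpha-null, treated wild type, Clk/Clk. Treated wild type and Clk/Clk overlapped, and the chaperones did not separate the 3 treated groups. The PPARalpha-null mean lay above untreated through Asns (2.03), beside Atf3 0.40, Trib3 0.17 and Ddit3 -0.90. From treated wild type to Clk/Clk the mean rose through Trib3 (1.77) and Ddit3 (0.92), not Atf3 (-0.07) or Asns (-0.20). The second Ddit3 probe set differed by 0.04 between those groups. The targets lay above the chaperones in every treated mouse, by 1.67 to 2.21 in treated wild type, 1.13 to 1.61 in PPARalpha-null and 1.99 to 3.01 in Clk/Clk mice, against -0.58 to 0.80 in the untreated mice. No test was made of these averages, because the members were chosen with results known, and within the ATF4 targets Ddit3 did not rise in wild type.

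**Figure D3:**
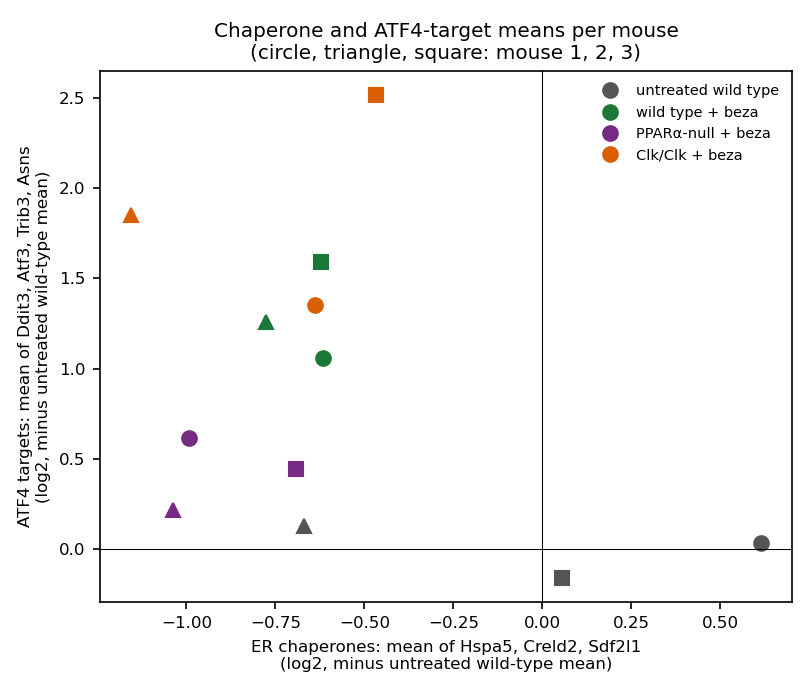
Mean of the chaperone members (horizontal axis) against the mean of the ATF4 target members (vertical axis) in each of the 12 mice, as log2 differences from the untreated wild-type mean. The 3 untreated mice spread along the horizontal axis from -0.67 to 0.61 with targets near 0, and the 3 Clk/Clk mice reach 1.35 to 2.51 on the vertical axis.

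The untreated mice differed among themselves in these genes. Untreated mouse 1 was the highest and untreated mouse 2 the lowest for 7 of the 10 members (Hspa5, Creld2, Sdf2l1, Herpud1, Xbp1, Atf4 and Ddit3), an order seen in 18.4% of all tested genes and picked after the values were seen. Besides Creld2, the range was 2.65-fold for Sdf2l1, 2.31-fold for Trib3, where mouse 2 was highest, and 1.97-fold for Ddit3. The pooled SD within groups lay at percentiles 85.9 to 99.2 of all genes for 9 members, and at percentile 68.2 for Xbp1. The wild-type falls of Hspa5 and Sdf2l1 rest in part on untreated mouse 1, as given above.

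The members were next placed beside fuller lists of the same pathways. By the call rule 7.77% of all tested genes fell and 12.8% rose in wild type. Against treated wild type 5.35% were higher and 8.09% lower in PPARalpha-null liver, and 2.64% and 6.49% in Clk/Clk liver. At an unadjusted p under 0.05 and any fold, 30.1% of all genes were higher and 25% lower in wild type with the drug, 21.3% and 23.1% in PPARalpha-null and 17.7% and 20% in Clk/Clk against treated wild-type liver, and counts at that threshold are to be read against these shares. Of 29 ER chaperones and folding enzymes, 6 fell with the drug in wild type and 0 rose in limma (19 lower and 1 higher at an unadjusted p under 0.05), with a median of -0.44. Besides Hspa5 and Sdf2l1 these were the protein disulfide isomerases Pdia5 (-1.08, adjusted p = 5.02e-05) and Pdia6 (-0.90), the prolyl isomerase Ppib (-0.85) and the large chaperone Hyou1 (-0.69). The falls numbered 3, with 1 rise, without untreated mouse 1, and 11 without untreated mouse 2. In PPARalpha-null against treated wild-type liver 2 were higher (Pdia5 0.65 and Txndc11 0.63), or 0 without treated wild-type mouse 1. In Clk/Clk liver 3 were lower (Pdia5 -0.80, Dnajc10 -0.69 and Fkbp11 -0.65). Pdia5 read 10.77, 10.65 and 10.80 in untreated, 9.41, 10.04 and 9.53 in treated wild type, 10.38, 10.29 and 10.25 in PPARalpha-null and 8.92, 8.78 and 8.87 in Clk/Clk mice. Those 4 groups did not overlap.

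Among 29 tested genes of ER-associated degradation and secretion, 5 fell and 1 rose in wild type, with a median of -0.23. Os9, a lectin that recognises misfolded glycoproteins, fell by 1.09 (adjusted p = 9.31e-07), and the translocon factor Tram1 fell by 0.73. Spcs3 and Syvn1 also fell, and Ubxn8 rose (0.75). The fall numbered 3 genes without untreated mouse 1 or treated wild-type mouse 3. PPARalpha-null liver was higher in 4 (Herpud1, Os9 0.59, Tram1 0.63 and Sec31a 0.68), 2 without treated wild-type mouse 1. In Clk/Clk liver 0 of the list were called in limma (3 higher and 10 lower at an unadjusted p under 0.05), and 1 was lower without treated wild-type mouse 1 or 3 or Clk/Clk mouse 3. Of 15 UPR sensors and transcription factors, Xbp1 and Ern1 fell and Nfyb rose (0.79) in wild type. The count of those that rose was 3 without untreated mouse 1 and 2 without treated wild-type mouse 1 or 3. Ern1, which encodes IRE1alpha, the sensor that splices Xbp1 mRNA, read 10.08, 10.08 and 10.12 in untreated, 8.48, 8.70 and 8.64 in treated wild type, 9.33, 9.57 and 9.69 in PPARalpha-null and 8.69, 9.17 and 9.07 in Clk/Clk mice. It fell 2.8-fold in wild type (-1.48, adjusted p = 2.92e-06) and was 1.89-fold higher in PPARalpha-null than in treated wild-type mice, which it shared with Xbp1. In this list 2 genes were therefore higher in PPARalpha-null liver, 1 without treated wild-type mouse 2 or PPARalpha-null mouse 3. In Clk/Clk liver 1 was lower (Nfyb -0.61), 0 without treated wild-type mouse 1 or Clk/Clk mouse 1 or 3.

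On the eIF2alpha side, 1 of 15 tested kinases, phosphatases and eIF2B subunits rose in wild type: Impact, an inhibitor of the amino acid sensing kinase GCN2 (1.43, SE 0.135, adjusted p = 6.64e-06). The count was 3 without untreated mouse 1 or treated wild-type mouse 3. Impact was lower in PPARalpha-null than in treated wild-type mice (-1.20), the only call of that comparison, with 2 lower when treated wild-type mouse 3 was left out. The kinase PKR gene, Eif2ak2, was lower in Clk/Clk mice (-0.76), which was not called without treated wild-type mouse 1.

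Of 18 tested ATF4 and CHOP transcription factors and regulators, 6 rose and 2 fell in wild type, 1 and 4 were higher and lower in PPARalpha-null liver, and 4 and 1 in Clk/Clk liver. The list median was -0.01 with the drug in wild type, and -0.18 in PPARalpha-null and 0.34 in Clk/Clk against treated wild-type liver. Nupr1, a stress-induced chromatin protein, read 5.23, 5.47 and 5.79 in untreated, 7.77, 7.09 and 8.28 in treated wild type, 5.46, 5.34 and 5.51 in PPARalpha-null and 7.91, 10.08 and 10.81 in Clk/Clk mice. It was 4.16 higher in Clk/Clk than in PPARalpha-null mice (17.9-fold, adjusted p = 0.000161), and PPARalpha-null mice lay in the untreated range. Atf5 rose 1.18 with the drug, was 0.69 lower in PPARalpha-null liver (log2 difference -0.69) and 0.99 higher in Clk/Clk liver. Nfe2l1, a regulator of proteasome genes, rose 0.97 and was -1.45 in PPARalpha-null liver. The 4 genes higher in Clk/Clk liver (Atf5, Ddit3, Nupr1 and Trib3) numbered 2 without treated wild-type mouse 1 or 2 or Clk/Clk mouse 2 or 3. The 2 genes that fell with the drug, Herpud1 and Trib1, numbered 1 without untreated mouse 1, and the call of Trib1 in Clk/Clk liver (-0.66) was lost without Clk/Clk mouse 1.

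Among 19 tested ATF4 targets of amino acid synthesis and transport, 8 were called higher and 4 lower in wild type, with a median of 0.37. Psat1 and Aldh18a1 are 2 of the 8, and both lay under the filter level in all untreated mice and were tested only through the groups where they are high. Without them 6 of 17 rose and 4 fell, and the median was -0.06, so the positive median rests on these 2 genes. Psat1, of serine synthesis, read 4.001, 4.41 and 4.25 in untreated, 8.27, 8.44 and 9.16 in treated wild type, 4.55, 6.04 and 6.03 in PPARalpha-null and 7.81, 8.25 and 8.70 in Clk/Clk mice. Aldh18a1, of proline synthesis, read 4.18 to 4.71 in untreated and 6.23 to 7.08 in treated wild type, with 4.54 to 4.77 in PPARalpha-null and 4.70 to 5.19 in Clk/Clk mice. No fold is drawn from either gene, and they stand in the counts only. Slc3a2, the heavy chain of amino acid exchangers, rose 1.48 (SE 0.111, adjusted p = 1.14e-06), and the mitochondrial folate enzyme gene Mthfd1l rose 1.38. The 4 genes that fell, Got1 (-2.33), Cth (-1.56), Cbs (-0.67) and Gpt2, act in transamination or in cysteine synthesis. In PPARalpha-null liver 6 of the list were lower (5 without Aldh18a1) and 3 higher than in treated wild type, Got1 by 2.94 and Cth by 0.97 among the latter. In Clk/Clk liver Got1 (1.56), Cth (1.44) and Cbs (1.33) were higher, while 2 were called lower, Mthfd1l (-1.29) and Aldh18a1. The list median in that comparison was -0.14. Asns rose in wild type beside Mthfd1l, Psph, Slc3a2, Slc6a9 and Slc7a1. All of these but Slc6a9 were also called lower in PPARalpha-null liver, where Asns was not, and that contrast between genes was not tested.

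**Figure D4:**
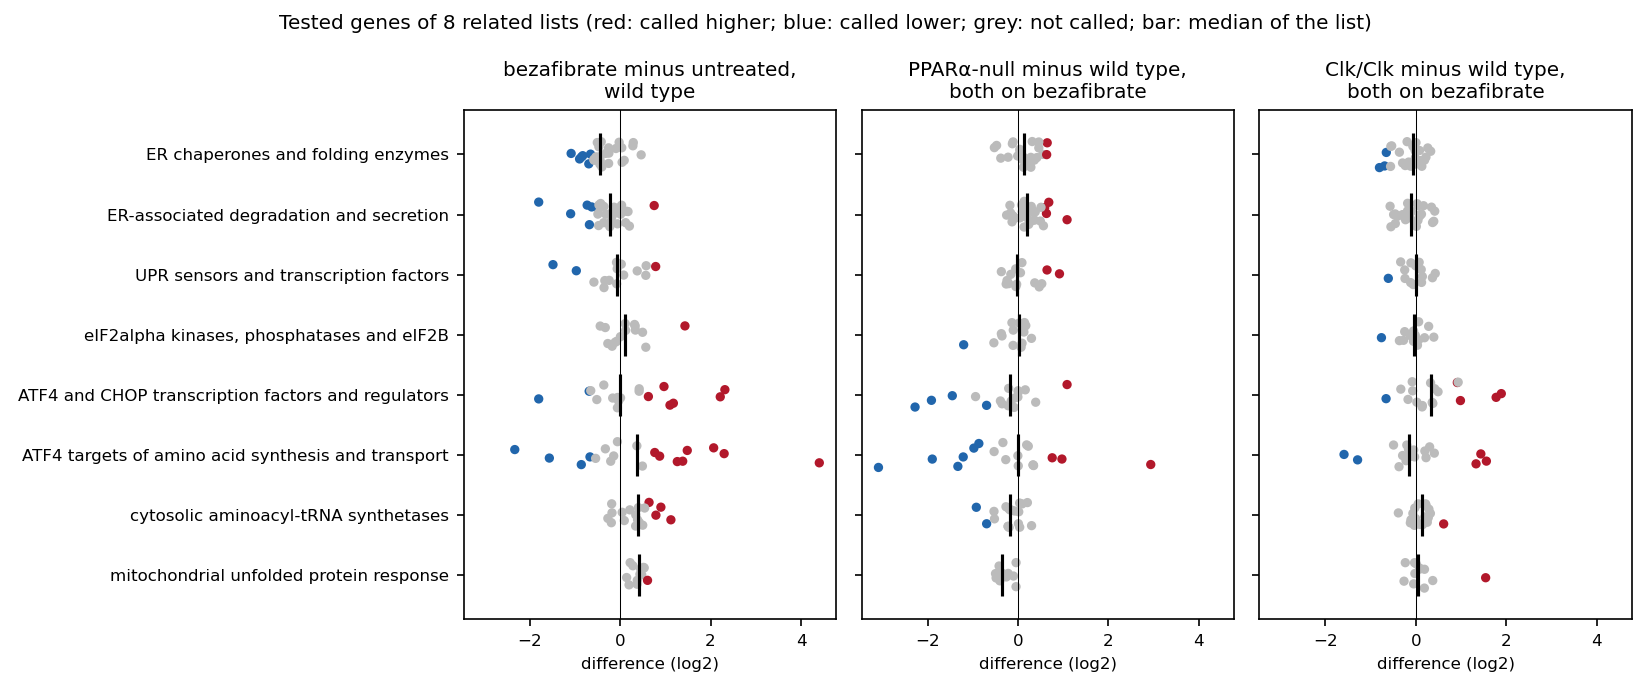
Log2 difference of every tested gene (points) of 8 related gene lists in the 3 main comparisons, with the list median as a bar. Red points were called higher, blue points called lower and grey points not called. In wild type the median of the ER chaperones is -0.44, against 0.37 for the ATF4 targets of amino acid supply, which is -0.06 without Psat1 and Aldh18a1.

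Cytosolic aminoacyl-tRNA synthetases, which are largely ATF4 targets, numbered 19 tested. With the drug in wild type 4 rose and 0 fell in limma (12 higher and 2 lower at an unadjusted p under 0.05): Gars (1.12, adjusted p = 1.57e-06), Lars (0.90), Vars (0.79) and Iars (0.64). Gars (-0.92) and Lars (-0.69) were lower in PPARalpha-null than in treated wild-type liver, and 4 were lower without PPARalpha-null mouse 2. Tars was higher in Clk/Clk liver (0.61), which was not called without treated wild-type mouse 2 or Clk/Clk mouse 3.

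The genes of most similar profile were found by the root mean square difference of log2 values over the 12 arrays, after each gene's untreated mean was subtracted. For Hspa5, whose own root mean square was 0.473, the nearest was Hyou1 at 0.113, then Arhgap4, Nktr and Crybb3 at 0.131 to 0.154. For Herpud1 (own 1.20) they were Slc39a14, Lurap1l, Acadsb and Mug1, at 0.179 to 0.211. Trib3 (own 1.60) was nearest to Ccng2 at 0.424, then 2410006H16Rik, Slc6a4 and Pknox2 up to 0.553. Asns (own 1.91) was nearest to Retsat at 0.527, then Csad, Acacb and Ehhadh up to 0.588. No other member was among these nearest genes.

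Arrays agreed closely in level, with array medians of 5.45 to 5.50 and correlations of 0.993 to 0.996 within and 0.969 to 0.990 between groups. Ppara signal was lower in PPARalpha-null than in treated wild-type liver (-0.90, adjusted p = 0.000574) and Clock signal higher in Clk/Clk liver (1.08, adjusted p = 0.000826). The labels do not say whether those probe sets lie in the deleted or mutated stretch, so they check neither genotype. In a bulk liver sample, fewer cells of a type and less RNA per cell cannot be told apart. The hepatocyte markers Alb, Apoa1 and Ttr lay near the top of the range in every group, which leaves little room for a rise to show. With the drug in wild type 2 of 6 tested hepatocyte markers fell, 0 rose and 4 were not called. Those that fell were Tat (group mean 13.30 in untreated and 11.67 in treated wild type) and Cps1 (13.93 and 12.69). Macrophage markers, of which 8 of 8 were tested, had a mean log2 of 8.37 to 8.60 in untreated, 8.45 to 8.97 in treated wild type, 8.45 to 8.67 in PPARalpha-null and 8.02 to 8.31 in Clk/Clk mice. In Clk/Clk liver, where Ddit3 and Trib3 were higher, 3 of the 8 macrophage markers were lower than in treated wild type. So were 1 of 8 stellate markers (Col3a1), 1 of 4 cholangiocyte markers (Cldn7, under the filter level in all Clk/Clk mice) and the erythroid marker Alas2 (-1.57). In the same comparison 1 of 6 hepatocyte markers (Cps1) was higher. In wild type 3 of 8 endothelial and 2 of 8 stellate markers fell with the drug, 2 of 4 tested cholangiocyte markers rose, and 1 macrophage marker (Cd68) rose. Over all tested genes 7.77% fell and 12.8% rose in wild type. Against treated wild type 5.35% were higher and 8.09% lower in PPARalpha-null liver, and 2.64% and 6.49% in Clk/Clk liver. The 3 tested neutrophil markers had a mean of 5.87 to 6.48 in untreated and 6.51 to 7.75 in treated wild type, with 0 called there. None of 4 tested lymphocyte markers was called in the main comparisons, and the lymphocyte mean was 5.79 to 5.97 in all groups. Beside the PPARalpha-null calls of Herpud1, Xbp1 and Atf3, 2 of 6 hepatocyte and 1 of 8 endothelial markers were higher than in treated wild type. Lower were 2 of 8 macrophage, 1 of 8 stellate and 2 of 4 cholangiocyte markers, with 1 neutrophil marker higher (S100a8) and 1 lower (S100a9). Of those 2 cholangiocyte markers, Cldn7 lay under the filter level in all PPARalpha-null mice, and without it 1 of 3 was lower. Of the 3 tested pancreatic markers 1 (Pnliprp1) was called higher in wild type, from under the filter level, and 1 fell. Pnliprp1 was called lower in PPARalpha-null than in treated wild-type liver, and lay under the filter level in all PPARalpha-null mice. The 1 tested erythroid marker, Alas2, fell with the drug in wild type. The part of these markers in the members' differences was not tested.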

How the data were processed

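Liver RNA (250 ng per mouse) of 12 mice was measured on Affymetrix arrays. Per the submitters' processing notes the authors used RMA, and the deposited values are log2 signals for 45101 probe sets; its version and background steps are not given in the sources used here. Probe sets were named from the platform annotation: of 45037 that are not controls, 34945 had 1 symbol, 932 several and 9160 none. A probe set was tested where it reached its array's 40th percentile (4.87 to 4.92) on at least 3 arrays. Each gene was read by its brightest tested probe set with exactly 1 symbol, which left 13598 genes. One limma (3.58.1, R 4.3.3) fit of 4 group means with lmFit and eBayes gave all contrasts, with Benjamini-Hochberg adjustment over all genes tested; called genes had an adjusted p under 0.05 and at least 1.5-fold. All probe sets of the members were also fitted, adjusted over 28344 probe sets, and background shares there are near those of genes. The fit was tested on simulated data. Those values were drawn independently for each gene and array, so that test did not cover variation that genes share within a group.

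The mice are labelled as separate replicates, and their number limits the precision; arrays hold no read depth. Members, lists and tests were chosen with earlier results of these data known. Named genes were the members, Ppara and Clock, up to 4 called genes with the smallest adjusted p and no overlap per companion list and main comparison, and the 4 nearest profiles of 4 members. A few others were named to complete a count after their values were seen (Gpt2, Spcs3, Syvn1, Psph, Slc6a9 and Slc7a1). The alternatives left out each array in turn or changed the filter, probe set rule, normalization, weights or block.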

Additional observations from a re-analysis of the deposited data

Results flagged for a closer look

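The effects of the genotypes under the shared contrast with treated wild type differed between Clk/Clk and PPARalpha-null mice for 4 members, by the limma test of the difference itself (Clk/Clk minus PPARalpha-null, both on bezafibrate, n = 3 mice per group). Trib3 differed by 2.71 on the log2 scale (adjusted p = 0.000133), Atf3 by 1.84 (adjusted p = 0.00584) and Ddit3 by 1.31 (adjusted p = 0.00421), each higher in all 3 Clk/Clk mice than in all 3 PPARalpha-null mice. Herpud1 differed by -0.67 (adjusted p = 0.00583) and was lower in all 3 Clk/Clk mice. The second probe set of Ddit3 differed by 0.20 (adjusted p = 0.569) and that of Herpud1 by -0.51 (1.43-fold), neither called. With 3 mice in each group, no test for a single outlying mouse was made.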

How the results depend on the processing

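The 4 members that fell in wild type numbered 2 (Sdf2l1 and Herpud1) without suffix probe sets (those with a suffix for possible matches to other transcripts), where Hspa5 and Trib3 have no probe set left. The 2 higher in Clk/Clk liver numbered 1 with the mean of probe sets, with only the groups compared and with robust eBayes and a trend (Trib3), and 1 without suffix probe sets (Ddit3). The 2 higher in PPARalpha-null liver numbered 1 (Herpud1) with the mean of probe sets or without suffix probe sets, and the 1 lower became 2 (Atf3 and Trib3) with each probe set on its own, with the mean of probe sets or with only the groups compared. Leaving out each array in turn gave 2 to 5 members lower and 2 to 3 higher in wild type, 1 to 2 in each direction in PPARalpha-null liver, and 1 to 2 higher and 0 lower in Clk/Clk liver. Signs that turned were of differences that were not called. Leaving out each array in turn, the Clk/Clk difference ranged from -0.46 to 0.27 for Asns, -0.68 to 0.30 for Atf3 and -0.13 to 0.22 for Creld2, and the PPARalpha-null difference of Asns from -0.62 to 0.20. A second quantile normalization put the Clk/Clk difference of Creld2 at 0.0048. The cause was not tested.

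The criterion that every same-numbered pair of mice correlates over 0.1 was not met. Of 18 such pairs 3 did (median 0.03, range -0.09 to 0.13), against 2 of 36 other pairs (median -0.02). A weak pairing would fail that criterion too, so it cannot exclude that the numbers pair the mice. As a hint from the data, 7 of 12 mice correlated best with a mouse of their own number. Each correlation is shared by 2 mice, so the 12 are not independent, and the number expected by chance was not computed. A replicate block left the counts at 4 lower and 3 higher in wild type, 2 higher and 1 lower in PPARalpha-null, and 2 higher in Clk/Clk liver, and changed no member's call; over all genes it gave 1746 higher and 1055 lower in wild type, against 1742 and 1056. Leaving out arrays, or genes under the filter level, for the companion lists was added after seeing the data. With no minimum fold, 3710 genes were higher and 2939 lower in wild type.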

Other observations

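The mitochondrial unfolded protein response, which matches mitochondrial chaperones and proteases to protein import and is linked to ATF4 and ATF5, was read by 12 genes. Their median difference was 0.41 with the drug in wild type, -0.36 in PPARalpha-null against treated wild type and 0.04 in Clk/Clk against treated wild type. By the call rule 1 rose with the drug (Spg7, 0.61), while 11 were higher at an unadjusted p under 0.05, as were 30.1% of all tested genes. That count of 1 became 0 without treated wild-type mouse 1 and 2 without treated wild-type mouse 2. In PPARalpha-null liver 0 were called in limma, and 9 were lower and 0 higher at an unadjusted p under 0.05, beside 23.1% and 21.3% of all tested genes. Clpx, the unfoldase of the matrix protease that also acts on heme synthesis, read 10.21, 10.11 and 10.17 in untreated, 10.53, 10.21 and 10.87 in treated wild type, 10.21, 10.23 and 10.08 in PPARalpha-null and 12.19, 12.20 and 11.85 in Clk/Clk mice. It was 2.91-fold higher in Clk/Clk than in treated wild-type liver (1.54, SE 0.146, adjusted p = 8.03e-05), and the Clk/Clk mice lay above all others.

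The order of the untreated mice seen in most members, with mouse 1 highest and mouse 2 lowest, was also present in 15 of 29 ER chaperones (51.7%), 11 of 29 genes of ER-associated degradation and secretion (37.9%) and 9 of 19 aminoacyl-tRNA synthetases (47.4%). Among the ATF4 targets of amino acid supply it was present in 3 of 19 (15.8%), beside 18.4% of all tested genes. The labels give nothing that distinguishes these mice, and the median range over the untreated mice was 0.57 for the members and 0.21 for all tested genes.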
